A study of Mus musculus with 82 samples.

Results

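Skin of sham-handled mice was compared between day 4 (d4) and hour 2 of day 0 (h2), the first 2 biopsies of the series. The arrays labelled with a dosage of 0 Gy at these time points were taken and paired by the mouse that the labels name, which gave 8 arrays of 4 mice (M001, M002, M004 and M005) out of 82 arrays of 24 mice. The mice were male C57BL/6j animals, bought at 8 weeks of age and used after a period of acclimation. The sham procedure repeated the handling and the trip for irradiation but left out the exposure itself. At each time point a mouse was anesthetized, the back was shaved, a biopsy of dorsal skin was taken and the site was closed with sutures, so the skin at d4 came from an animal that already carried a healing wound from h2. The other animals of the series were exposed to X-rays over the whole body at one of several doses and were sampled in the same way. The change over the same interval is also given for 20 Gy, with 4 pairs of arrays, and 3 Gy, with 5 pairs, from mice of the same strain and sex.

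The labels give no clock hour for any biopsy. Handling, anesthesia, the earlier wound, hair regrowth after shaving and the hour of sampling all differ or may differ between h2 and d4, and they cannot be told apart in this design. On every slide used, the h2 array of a sham pair sat at an odd position and the d4 array at an even one, so position and time point cannot be told apart either. A biopsy mixes many cell types, and in such bulk samples fewer cells of a type and less RNA per cell cannot be told apart.

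Skin keeps its own circadian clock. The proteins of Arntl (BMAL1) and Clock pair up and switch on genes through a DNA element called the E-box, among them the period genes Per1, Per2 and Per3, the cryptochromes Cry1 and Cry2, Ciart, Nr1d1 and Nr1d2, and Dbp, Tef and Hlf. Period and cryptochrome proteins then inhibit the pair, while Dbp, Tef and Hlf act on other genes through the D-box. Arntl transcript is known to peak when that of Per2 and Dbp is low and the other way round. Skin also has a hair cycle, in which growing follicles make large amounts of hair keratin, and a cornified layer built by the late differentiation of keratinocytes.

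The promoters of 5 clock genes are shown because Arntl had the lowest p of all genes in the comparison, Dbp and Ciart are described below with it, and Tef and Per3 hold the motifs that were searched. RefSeq sequence of the assembly GRCm38.p6 was given for 17 of the 20 genes on the clock list, from 250 bases before to 50 bases after the start of each gene. The E-box (CACGTG, the same on both strands) was found in 5 of the 17, which is 29.4%, against 7.15% of 32851 promoters of the same length. The D-box (TTATGTAA, searched on both strands, not overlapping any E-box here) was found in 1 of the 17, against 0.938% of all. A match describes the letters in these windows and no more. Capitals mark an E-box in Ciart and Tef and a D-box in Per3, and the windows of Arntl and Dbp hold neither.
Arntl: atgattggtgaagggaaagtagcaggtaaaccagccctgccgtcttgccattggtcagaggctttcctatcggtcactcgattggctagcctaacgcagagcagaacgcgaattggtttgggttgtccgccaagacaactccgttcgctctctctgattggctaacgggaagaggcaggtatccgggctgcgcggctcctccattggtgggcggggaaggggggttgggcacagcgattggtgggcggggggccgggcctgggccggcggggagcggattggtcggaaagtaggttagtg
Dbp: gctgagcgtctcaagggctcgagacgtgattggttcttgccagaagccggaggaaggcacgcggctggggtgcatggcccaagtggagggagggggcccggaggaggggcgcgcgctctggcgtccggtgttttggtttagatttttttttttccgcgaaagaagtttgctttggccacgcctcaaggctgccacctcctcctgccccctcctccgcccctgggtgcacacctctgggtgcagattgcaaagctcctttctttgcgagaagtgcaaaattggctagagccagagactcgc
Ciart: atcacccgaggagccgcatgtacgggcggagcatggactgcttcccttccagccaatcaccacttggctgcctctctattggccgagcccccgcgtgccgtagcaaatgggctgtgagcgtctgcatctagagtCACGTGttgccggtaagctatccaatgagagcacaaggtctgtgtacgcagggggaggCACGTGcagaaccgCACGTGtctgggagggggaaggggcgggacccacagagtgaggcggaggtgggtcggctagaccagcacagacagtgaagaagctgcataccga
Tef: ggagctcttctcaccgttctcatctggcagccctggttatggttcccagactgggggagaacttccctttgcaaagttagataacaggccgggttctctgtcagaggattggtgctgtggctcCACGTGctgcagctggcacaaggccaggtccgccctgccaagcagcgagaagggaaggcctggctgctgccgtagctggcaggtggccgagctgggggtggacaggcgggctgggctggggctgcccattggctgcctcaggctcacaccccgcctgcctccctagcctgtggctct
Per3: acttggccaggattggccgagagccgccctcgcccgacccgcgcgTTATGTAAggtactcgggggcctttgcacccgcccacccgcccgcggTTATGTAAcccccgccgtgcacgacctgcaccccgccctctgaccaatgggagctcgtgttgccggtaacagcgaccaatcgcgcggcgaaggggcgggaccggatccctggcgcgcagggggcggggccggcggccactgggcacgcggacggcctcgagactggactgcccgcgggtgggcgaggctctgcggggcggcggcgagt
These windows lie at chr7:113207215-113207514 (plus strand) for Arntl, chr7:45704997-45705296 (plus strand) for Dbp, chr3:95882179-95882478 (minus strand) for Ciart, chr15:81802423-81802722 (plus strand) for Tef and chr4:151044616-151044915 (minus strand) for Per3.

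The values are log2 ratios of the biopsy over a common mouse reference RNA on the same array, and a change is the ratio at d4 minus that at h2 in the same mouse. The pairs of M001, M004 and M005 were each read on one slide of scanner 1 on the same scan day, and the pair of M002 on 2 slides of scanner 2. More probes stood well above background in the biopsy channel at d4 than at h2 in each mouse, with shares going from 51.4% to 63.0% in M001, 48.6% to 57.1% in M002, 59.5% to 65.2% in M004 and 61.5% to 63.4% in M005. Over 15686 genes, the ratios at h2 and d4 correlated at 0.98 in M001 and M004 and at 0.95 in M005, but at 0.67 in M002. A change of at least 2-fold was seen in 17.8% of genes in M002, against 0.797% in M001, 0.453% in M004 and 4.53% in M005. Across genes, the changes of 2 mice correlated between -0.13 (M002 and M004) and 0.23 (M004 and M005), genes not being independent replicates. M002 stood apart from the other mice, and values are given per mouse for that reason. The skin genes Krt1, a keratin of upper epidermal layers, and Col1a1, the main dermal collagen, were well above background on all 8 arrays, with their lowest ratios, 2.48 and 1.79, in M002 at h2.

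No probe passed the threshold used for a significantly differentially transcribed gene, set here at 2-fold or more with limma's p under 0.05 after Benjamini-Hochberg adjustment, in a model with the mouse as a block. Of 30294 probes tested, 0% were called higher and 0% lower at d4, and the lowest adjusted p was 0.10. At an unadjusted p under 0.05, 1307 probes differed, of which 34 were higher and 47 lower by at least 2-fold. Counted by gene, 414 (2.64%) were higher and 268 (1.71%) lower at an unadjusted p under 0.05. Of the 15424 genes measured in all pairs, 1637 (10.6%) were higher and 1017 (6.59%) lower at d4 in all 4 mice. With the 3 mice of scanner 1 alone, 19.6% of genes were higher in all of them and 14.4% were lower. An exact permutation test over the signs of 4 pairs cannot give a two-sided p under 0.125, so no gene could pass by that test.

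The clock gene Arntl had the lowest p of all genes. Its log2 ratio at h2 was -0.11 in M001, 0.38 in M002, 0.01 in M004 and 0.03 in M005. At d4 it was 1.26, 0.75, 1.35 and 1.35 in the same order. All 4 d4 values lay above all 4 h2 values, and the mean difference was 1.098 (SE 0.21), a 2.14-fold higher level at d4, with an adjusted p of 0.10 by limma. Under the alternatives tried the difference lay between 0.64, with ratios centred on their median, and 1.40, in the deposited values without M002. Clock, the gene of the partner protein, was higher in each mouse by a similar amount, 0.35 in M001, 0.29 in M002, 0.37 in M004 and 0.36 in M005 (unadjusted p = 0.0842 by limma).

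Per2 stood on the other side of the loop and was lower at d4 in each mouse. At h2 its ratio was 1.22 in M001, -0.25 in M002, 0.82 in M004 and 1.02 in M005. At d4 it was -0.52, -0.57, -0.64 and -0.77. The d4 values all lay below the h2 values, although M002 was low at both times, and the mean difference of -1.33 (SE 0.29) had an adjusted p of 0.26 by limma. The probe was well above background on 3 of 4 arrays at each time point. A further probe of Per2 differed by 0.28, 0.32, -0.29 and -0.00 in M001, M002, M004 and M005, so the 2 probes of this gene disagreed.

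Dbp, a D-box transcription factor whose transcript follows the clock closely, was lower at d4 in the 3 mice of scanner 1. Its ratio went from 1.93 to 0.54 in M001, from 1.82 to -0.13 in M004 and from 1.55 to 0.20 in M005. In M002 it went the other way, from -0.35 to 0.30. The h2 value of M002 thus lay far below those of the other mice, while its d4 value lay among theirs. Ciart, a repressor of the BMAL1 and CLOCK pair, showed the same arrangement, with changes of -0.85, -0.91 and -0.78 in M001, M004 and M005 and 0.09 in M002. Tef changed by -0.94, -1.26 and -0.71 in those 3 mice and by 0.83 in M002.

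**Figure D1:**
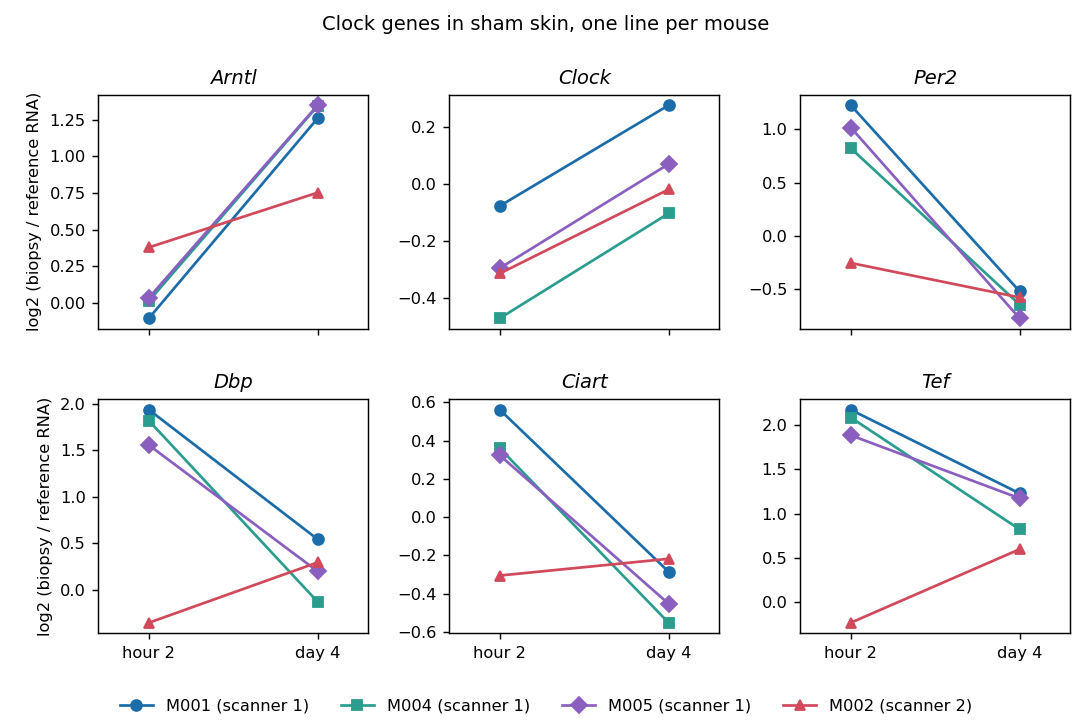
Log2 ratio of biopsy over reference RNA for 6 clock genes at hour 2 and day 4, one line per sham mouse, with a separate vertical scale for each gene. The lines of M001, M004 and M005 run together, upwards for Arntl and Clock and downwards for Per2, Dbp, Ciart and Tef, while the h2 values of M002 lie apart for all but Clock.

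Of the 19 clock genes measured, 1 was higher and 5 were lower at an unadjusted p under 0.05 (Arntl against Per2, Ciart, Dbp, Bhlhe41 and Cry1), beside 2.64% and 1.71% of all genes. Their median change was -0.26, beside 0.02 over all genes, and lay between -0.21 and -0.41 under the other scalings tried. It was -0.14 without M001, -0.43 without M002, and -0.09 over the members whose probes were well above background on all 8 arrays. In the 3 mice of scanner 1, 11 of the 19 were lower in every mouse and 2 were higher in every mouse (Arntl and Clock), where 14.4% and 19.6% of all genes did so. The median over the list was -0.46 in M001, -0.34 in M004 and -0.30 in M005, and 0.58 in M002. In the deposited values it was -0.52, -0.24 and -0.64 in the same 3 mice and -0.01 in M002. The 5 genes with an E-box in the promoter window (Bhlhe41, Ciart, Cry1, Per1 and Tef) and Per3, with a D-box, were among the 11. Bhlhe41, a repressor, differed by -0.37, -0.45 and -0.61 in M001, M004 and M005. Cry1, an inhibitor, was the only gene beside Per2 that was lower in all 4 mice, by -0.27, -0.25, -0.15 and -0.50 in M001, M002, M004 and M005. Its probe was well above background on 2 of 4 arrays at h2 and 1 of 4 at d4.

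**Figure D2:**
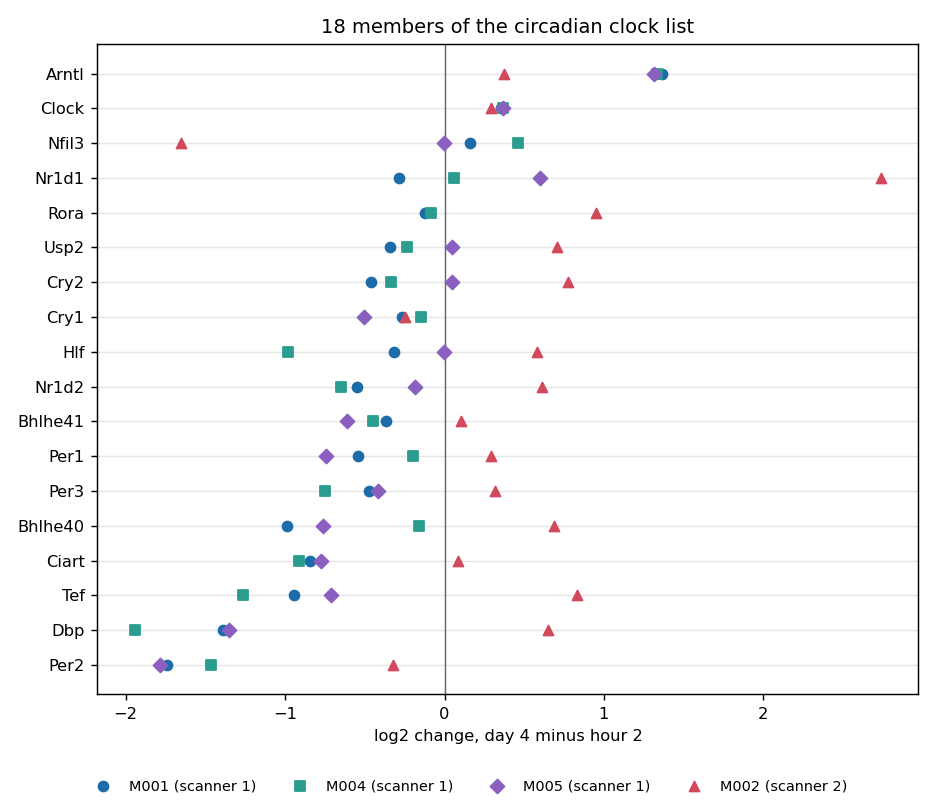
Log2 change from hour 2 to day 4 of 18 clock genes, one symbol per sham mouse, ordered by the mean of the 3 mice of scanner 1. Arntl and Clock lie to the right of 0 in all mice, Per2, Dbp, Tef and Ciart lie at the bottom in M001, M004 and M005, and M002 (triangles) lies to the right of the other mice for most genes.

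When only arrays of scanner 1 were fitted, 4 of 30294 probes (0.0132%) passed the threshold, and 3 of the 4 were clock genes. Arntl was higher by 1.34 (SE 0.09), Per2 lower at -1.66 (SE 0.12) and Dbp lower at -1.56 (SE 0.11), each with an adjusted p of 1.9e-04 by limma, with 3 mice. The remaining probe, of the transcript AK040806, has no symbol and differed by -1.36 (SE 0.14). That fit drew its spread from all arrays of scanner 1, irradiated ones included. When only the h2 and d4 sham arrays of these 3 mice were fitted, no probe passed, and the lowest adjusted p was 0.15 by limma. With the normalized values that the authors deposited, 6 probes (0.0198%) passed in the fit of all arrays, among them again Per2 at -1.82, Arntl at 1.26 and Dbp at -1.29. In those values M002 differed by 0.86 for Arntl, -1.04 for Per2 and -0.23 for Dbp, and over all genes its changes correlated with those of the other mice at -0.23 to 0.02. The other probes called there were of Uhrf1, which maintains DNA methylation, at -1.02, of Cys1, a cilium gene, at -1.03, and one without a symbol.

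The genes that differed one way in all mice by at least 2-fold on average, and were well above background, are given next by lowest p, although none passed the threshold. The list of higher genes was ended at the 12 of lowest p, the first of which was Arntl. Mybph, a myosin-binding protein, had ratios of 0.80, 0.01, 1.97 and 1.78 at h2 in M001, M002, M004 and M005 and of 3.41, 3.91, 4.17 and 3.77 at d4. The groups did not overlap, the mean difference was 2.68 (SE 0.96), a 6.39-fold higher level, and a further probe of Mybph gave changes from 1.86 to 4.35. Sln encodes sarcolipin, a regulator of the calcium pump of muscle, and differed by 2.50, 5.52, 1.47 and 2.97 in the same order. A further probe of Sln differed by -0.11 to 0.03, so its probes disagreed. Mustn1, expressed in muscle and skeleton, differed by 0.57, 3.04, 2.86 and 1.88. Asb2, a ubiquitin ligase subunit found in muscle, differed by 0.77, 4.18, 0.63 and 1.23.

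Markers of skeletal muscle, which lies under the skin, were high on every array. The 16 skeletal muscle markers had a median ratio of 5.003 to 5.82 on the h2 arrays and 5.33 to 6.53 on the d4 arrays. Their median change was 0.05 in M001, 1.76 in M002, -0.46 in M004 and 0.63 in M005, and 1 of the 16 was higher in all 4 mice, beside 10.6% of all genes. In M001 and M004, Mybph and Sln were thus higher by 1.47 to 2.61 where the markers differed by 0.05 and -0.46. By its further probe, Sln differed by 0.03 in M001 and 0.02 in M004. The part of muscle content in these differences was not tested.

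The other higher genes differed by smaller steps. Dyrk1b, a kinase known from muscle and growth arrest, differed by 1.61, 0.92, 0.93 and 1.19 in M001, M002, M004 and M005. Its further probes differed by 0.68, 0.52, 0.18 and 0.14 and by 0.17, 1.11, -0.35 and 0.03, so the 3 probes disagreed in size and, in M004, in sign. Egf, the epidermal growth factor, differed by 0.37, 2.04, 0.46 and 1.23, and Tspan8, a tetraspanin, by 0.82, 2.14, 0.47 and 1.52. Dhh, the hedgehog ligand made by Schwann cells, differed by 0.59, 2.12, 0.24 and 1.07, and Plcd4, a phospholipase, by 0.73, 2.67, 0.29 and 0.89. Arhgap20, a GTPase-activating protein, had changes from 0.31 to 1.79 (-0.12 to 0.56 and 0.20 to 0.39 by its further probes) and Myoc, the gene of myocilin, from 0.57 to 3.61. For 9 of these 12 genes the change of M002 was above 2.

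In the other direction 3 genes met the conditions, which cannot be set against the 12 since that list was ended there. Enc1, an actin-binding protein, was at 0.08, 1.17, -0.32 and 0.22 at h2 in M001, M002, M004 and M005 and at -0.50, -0.92, -0.55 and -1.04 at d4. The groups did not overlap and the mean difference was -1.04 (SE 0.29), while a further probe of Enc1 differed by -0.09 to -1.26. Dusp2, a phosphatase of MAP kinases, differed by -0.29, -5.19, -0.02 and -0.45, and Tent5b, a poly(A) polymerase, by -0.37, -3.30, -0.07 and -0.42. Both means were carried by M002.

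**Figure D3:**
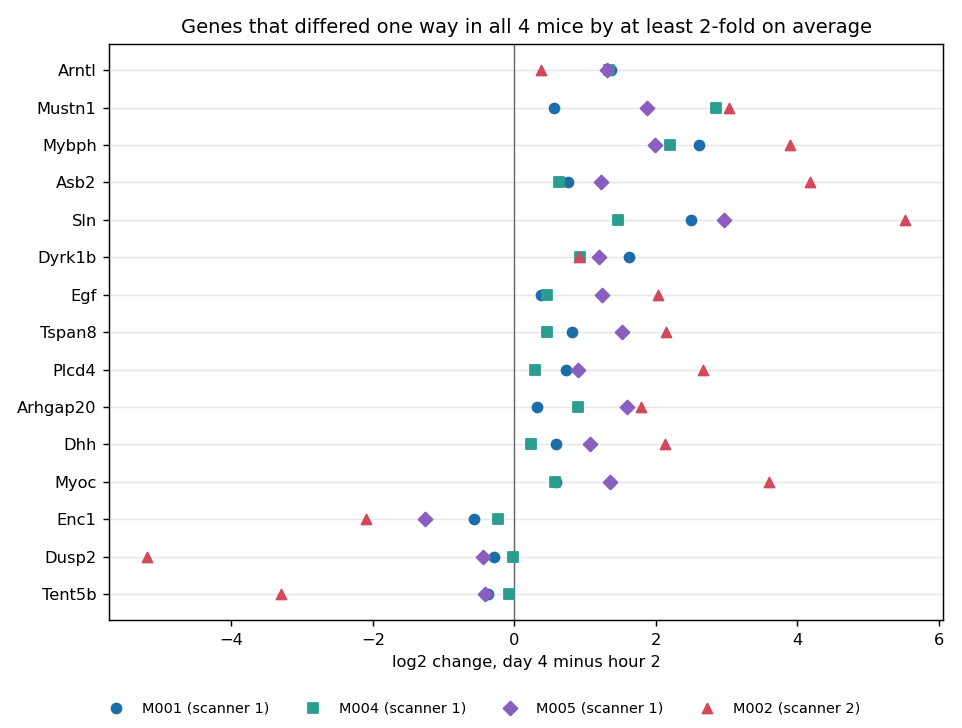
Log2 change from hour 2 to day 4 of the 12 higher and 3 lower genes chosen by lowest p, one symbol per sham mouse. All symbols of a gene lie on one side of 0, which the choice of genes fixes, and those of M002 are often the farthest from 0.

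Hair keratins separated M002 from the other mice. The 26 measured genes of the growing hair follicle had a median ratio of 5.48 in M002 at h2, against 0.30, 0.23 and 0.04 in M001, M004 and M005 at h2 and 0.06 to 0.29 on the 4 d4 arrays. Krt71, a keratin of the inner root sheath, was at 7.37 in M002 at h2 and at 0.42 at d4, while it lay between 0.15 and 1.26 on the other 6 arrays. The median change of the list was -5.10 in M002 and between -0.01 and 0.13 in the other mice, so the list median of -1.09 was 0.04 without M002. In the 11 members lower at an unadjusted p under 0.05, beside 1.71% of all genes, the change of M002 ran from -2.04 to -7.46, while those of the other mice ran from -1.09 to 1.01. Dsg4, a desmoglein of the hair shaft, and Tchhl1, related to trichohyalin, had the lowest p, with changes of -2.81 and -2.14 in M002 and of -0.16 to 0.13 in the other mice, and each was well above background on 1 h2 array and on no d4 array.

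**Figure D4:**
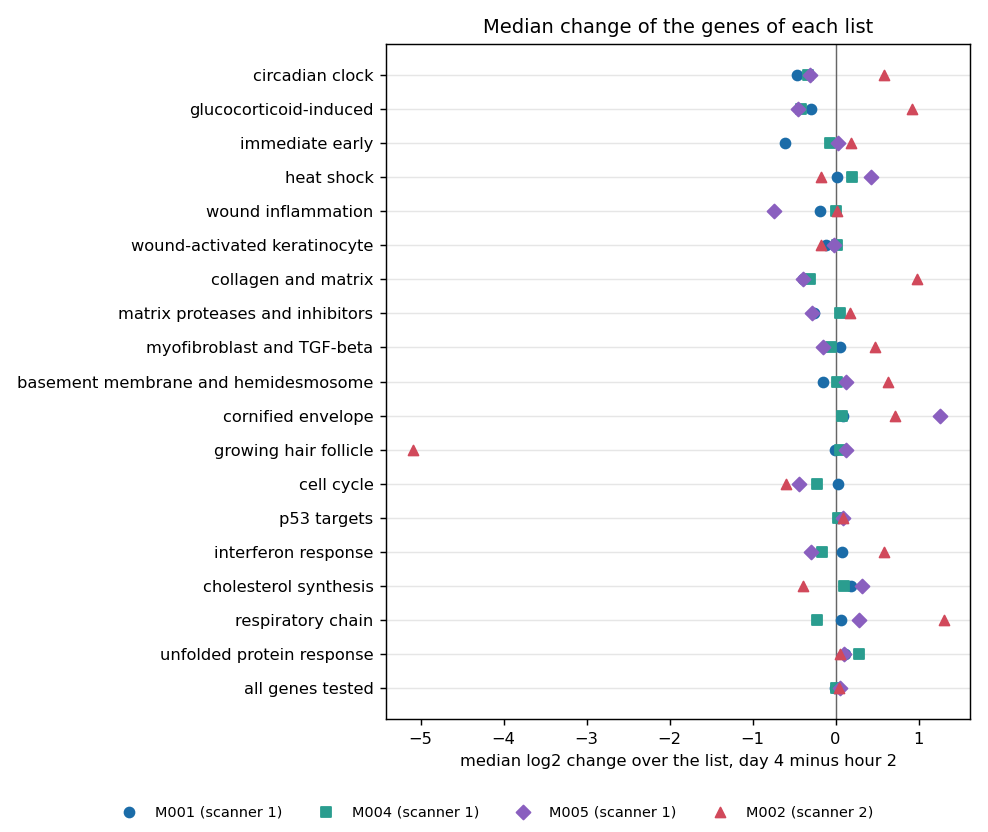
Median log2 change from hour 2 to day 4 over the measured genes of each of 18 gene lists and over all genes tested, one symbol per sham mouse. The growing hair follicle list lies at -5.10 in M002 and near 0 in the other mice, and the clock list lies below 0 in M001, M004 and M005 only.

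The cell cycle list had the most members lower at d4 in every mouse of the gene lists. Of 30 cell cycle genes, 29 had a mean change below 0, beside 7009 of all 15686 genes, and 2 were lower at an unadjusted p under 0.05, Pcna, the sliding clamp of replication, and Mcm6, a subunit of the replicative helicase, beside 1.71% of all genes. Pcna differed by -0.42, -0.62, -0.09 and -0.26 in M001, M002, M004 and M005, and Mcm6 by -0.84, -0.30, -0.55 and -0.30. Of the 29 measured in all pairs, 11 were lower in all 4 mice and none higher, where 6.59% and 10.6% of all genes were. The helicase subunits Mcm2, Mcm3, Mcm4 and Mcm7 were among the 11. The list median was 0.03 in M001, -0.60 in M002, -0.23 in M004 and -0.43 in M005. In the deposited values the medians were 0.19, -0.65, -0.21 and 0.01, so M001 and M005 lay above 0 there. The list median lay below 0 under each scaling tried, between -0.18 and -0.79. The lowest was with ratios centred on their median, where the median over all probes was -0.16. In the deposited values without M002 the list median was -0.02.

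Late keratinocyte genes were higher at d4 in part of the mice. Of 30 cornified envelope genes, 27 had a mean change above 0, beside 8677 of all 15686 genes, with a list median of 0.54 (0.11 in the deposited values, -0.01 with the scanner's own log ratios), but none passed an unadjusted p of 0.05 in either direction. Its medians were 0.09, 0.72, 0.08 and 1.26 in M001, M002, M004 and M005. Of the 27 measured in all pairs, 5 were higher in all 4 mice, beside 10.6% of all genes. Lce1l and Lce1h, proteins of the late envelope, had the lowest p in this list, with changes of 0.30, 0.72, -0.10 and 1.57 and of 0.12, 2.55, 0.14 and 1.98. In M005 the deposited median was 0.23 instead of 1.26, and the changes of M005 in both kinds of values correlated at 0.55 over genes, against 0.93 to 0.95 in the other mice.

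Genes of wounding and stress are described next. Of 21 wound inflammation genes, 1 was lower at an unadjusted p under 0.05, beside 1.71% of all genes. This was Ccl2, a monocyte chemokine, with changes of -1.42, -0.30, -0.60 and -0.80 in M001, M002, M004 and M005. Ccl7, a related chemokine, differed by -1.13, -0.09, -0.77 and -1.42. The cytokine Il33 differed by 0.22, 0.90, 0.41 and 0.33, and the list had 4 members lower and 1 higher in all 4 mice, beside 6.59% and 10.6% of all genes. In the 3 mice of scanner 1, 8 of the 21 were lower in every mouse, beside 14.4%. Among 24 immediate early genes, none passed in either direction, and Fosb differed by -1.97, 1.78, -0.76 and -2.49 and Zfp36, a decay factor of cytokine messages, by -0.93, -0.09, -0.49 and -0.51 (-0.51, 0.13, 0.07 and -0.10 by a further probe). Of 25 genes of wound-activated keratinocytes, 1 was lower at an unadjusted p under 0.05, Sprr2h, at -3.66 in M002 and from -0.66 to 0.15 in the others, and Areg, a growth factor, was at -1.99 in M002 and from -0.32 to 0.34 in the others. Of 15 genes induced by glucocorticoids, 1 was higher at an unadjusted p under 0.05, beside 2.64% of all genes, Pdk4, a switch of fuel use, with changes of 0.20, 4.96, 0.38 and 2.46, while the kinase gene Sgk1 differed by -0.26 to -0.69 in the 3 mice where it was measured. That list had medians of -0.29, -0.41 and -0.45 in M001, M004 and M005 and of 0.92 in M002. In all 3 mice of scanner 1, 8 of the 15 were lower and 4 were higher, beside 14.4% and 19.6% of all genes.

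Of the extracellular matrix lists, that of collagens separated M002 from the other mice. The 25 collagen and matrix genes had medians of -0.39, -0.31 and -0.39 in M001, M004 and M005 and of 0.98 in M002, none passed an unadjusted p of 0.05, and 14 were lower in all 3 mice of scanner 1, beside 14.4% of all genes. Col1a1 differed by -0.38, -0.70 and -0.54 in those mice and by 0.85 in M002. Col16a1 was the only member lower in all 4 mice, by -0.26 to -0.99 (a further probe was at 0.10 in M005), and Tnc, the gene of tenascin C, was at -1.67 in M002 and -0.39 to 0.15 in the others, while a further probe was at -0.45 in M002 and -0.08 to -0.55 in the others. The proteases and inhibitors had medians of -0.26, 0.17, 0.06 and -0.29 in M001, M002, M004 and M005, and none of the 18 passed, of which Mmp11 differed by -1.24, -1.66, 0.96 and -0.98. Myofibroblast and TGF-beta genes had medians of 0.06, 0.48, -0.05 and -0.15, and of the 16 members 1 was lower at an unadjusted p under 0.05, beside 1.71% of all genes, Smad7, an inhibitor of that pathway, at -1.54 in M002 and from -0.23 to 0.03 in the others, and Acta2, smooth muscle actin, was at 4.01 in M002 and from -0.25 to 1.05 in the others, while 2 further probes of Acta2 gave 0.70 and 1.09 in M002 and -0.66 to 0.32 in the others. Basement membrane genes had medians of -0.15, 0.63, 0.02 and 0.13, and none of the 18 passed, where Dst had changes of -0.11 to 1.54 and Col4a1 of -0.02 to 1.91, the highest in M002.

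The p53 targets, which mark the response to DNA damage, stayed near 0 in these unexposed mice as a list, with medians of 0.03, 0.09, 0.02 and 0.09 (list median 0.01, or -0.48 with ratios centred on the median). Of the 20, 2 were higher at an unadjusted p under 0.05, beside 2.64% of all genes, Ccng1 (0.67, 3.36, -0.01 and 0.88, with -0.70 in M004 by a further probe) and Fas (0.12, 0.94, 0.40 and 0.19, or -0.32 to 0.30 by a further probe), while Mdm2 differed by -0.03 to 0.19. Interferon response genes had medians of 0.08, 0.58, -0.16 and -0.29, with Irf1 between -0.32 and 0.94 (-0.57 and 0.42 by a further probe) and Psmb8 between -0.12 and 0.98, and none of the 24 passed. Of 16 heat shock genes and 18 of the unfolded protein response none passed, and the chaperone Hspa5, on both lists, was higher by 0.22, 0.39 and 0.56 in the 3 mice where it was measured. Hspb7 was at 3.53 in M002 and from -0.15 to 1.22 in the others, and Pdia6 at -0.07 in M002 and 0.12 to 0.62 in the others. Further probes of Pdia6 were at -0.02 and 0.13 in M002 and from -0.03 to 0.40 in the others. The heat shock list had medians of -0.17 to 0.42 and the unfolded protein response list of 0.05 to 0.28.

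Of the 20 cholesterol synthesis genes, none passed an unadjusted p of 0.05 in either direction. In direction alone, 13 were higher in all 3 of these mice, beside 19.6% of all genes, and the list medians were 0.19, 0.10 and 0.32, against -0.39 in M002. With ratios centred on the median in place of loess, where the median over all probes was -0.16, the list median was -0.47 in place of 0.02. Mvd, an enzyme of the mevalonate branch, differed by 0.06 to 0.30 in all 4 mice (mean of -0.35 with ratios centred on the median), and Sc5d, a late enzyme, differed by -0.25 in M002 and 0.33 to 0.44 in the others. All 27 respiratory chain genes had a mean change above 0, beside 8677 of all 15686 genes, with a list median of 0.39 (-0.26 with ratios centred on the median), but the list median was 1.31 in M002 and 0.07, -0.23 and 0.28 in M001, M004 and M005, and the complex I subunit Ndufs3 was at 1.56 in M002 and from -0.13 to 0.25 in the others.

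Marker lists of cell types describe how alike the biopsies were. In M002 the list medians were 2.12 for endothelium, 1.88 for mast cells, 1.84 for mural cells, 1.73 for adipocytes, 1.59 for macrophages, 1.31 for suprabasal keratinocytes, 1.26 for fibroblasts and 1.03 for Schwann cells, all higher at d4 than at h2. In M001 and M004 the same 8 lists had medians of -0.47 to 0.15, and in M005 of -0.60 to 0.81. In the deposited values the 8 medians ran from 0.68 to 1.35 in M002, from -0.73 to 0.15 in M001 and M004 and from -1.14 to 0.15 in M005. Skeletal muscle markers, described above, were also higher at d4 in M002, at 1.76 and at 1.69 in the deposited values. The hair keratin signal of M002 at h2 moved with these differences, and its part in them was not tested. The members of lowest p were Tek and Pecam1 for endothelium (2.10 and 1.86 in M002, -0.10 to 0.60 in the others), Abcc9 and Rgs5 for mural cells, Retn and Thrsp for adipocytes, Csf1r and Msr1 for macrophages, Mfap5 and Pdgfra for fibroblasts, Mrgprb2 and Ms4a2 for mast cells and Krt1 and Calm4 for suprabasal keratinocytes. None of these 14 passed an unadjusted p of 0.05, whereas 2 of the 10 Schwann cell markers were higher at that threshold, beside 2.64% of all genes. Myl1 and Actn3 had the lowest p of the skeletal muscle markers, with 2.93 and 4.12 in M002 and -0.50 to 1.25 in the others.

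Neutrophil markers had medians between -0.21 and 0.10 in the 4 mice, T cell markers between -0.03 and 0.23, B cell markers between -0.10 and 0.18, platelet markers between -0.28 and 0.11 and erythroid markers between -0.51 and 0.45. Xcr1, which marks cross-presenting dendritic cells, was higher in each mouse by 1.38, 0.23, 0.63 and 1.00 in M001, M002, M004 and M005 (unadjusted p = 0.0029 by limma), in a list of dendritic and Langerhans cell markers whose medians lay between -0.23 and 0.65, and Epcam, a marker of Langerhans cells and also expressed in follicle epithelium, was at -2.48 in M002 and from 0.01 to 0.62 in the others. Cd3e, a part of the T cell receptor complex, differed by 0.87, 1.15, -0.10 and 0.12 and was higher at an unadjusted p under 0.05, and Trat1 by 0.08 to 0.42 (-0.18 to 0.84 by a further probe). S100a8 was at -2.72 in M002 and from -0.48 to 0.23 in the others. Camp, Cd22, Gp1ba and Gp9 were well above background on at most 1 of the 8 arrays. Slc4a1 was at -2.28 in M002 and 0.03 to 0.37 in the others, and Bpgm differed by -0.07 to -0.59 (-0.54 to 0.01 by a further probe). 

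In the remaining skin lists, sebaceous gland markers had medians of 0.14 to 0.67, and the lipogenic enzymes Fasn and Scd1 differed by -0.02 to 0.51 in the 3 mice where their probes were measured. A further probe of Fasn was measured in all 4 mice and differed by 0.55, 1.98, 0.30 and 0.47. Basal keratinocyte markers had medians of -0.16 to 0.51, with Itga6 between -0.11 and 0.53. Hair follicle stem cell markers had medians of -0.56 to 0.49, with Sox9 at -3.08 in M002 and from -0.13 to 0.81 in the others (further probes were at -2.78 and 0.29 in M002) and Nfatc1 between -0.11 and 1.29. Melanocyte markers had medians of -0.29 to 0.59, with Slc45a2 between -0.32 and 0.14 and Sox10 between -0.09 and 0.86. No member of these 4 lists passed an unadjusted p of 0.05.

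The same interval was then read in irradiated mice to see which sham changes differed from theirs. In the test of sham change minus 20 Gy change, 2 of 30294 probes (0.0066%) passed the threshold, both lower in sham and both without a gene symbol. The probe of the transcript W15861 differed by -0.20, -1.02, -0.30 and 0.19 in the sham mice and by 1.33, 1.73, 1.11 and 1.28 in the 4 mice of 20 Gy, a difference of -1.70 (SE 0.28, adjusted p = 0.0084 by limma). The probe of AK021217 differed by -0.27 to 0.13 in sham and by 0.46 to 1.80 after 20 Gy, a difference of -1.18 (SE 0.21, adjusted p = 0.0151 by limma). Neither passed in the deposited values, where 0 probes did by limma and 32 had an unadjusted p under 0.05. Leaving out M001 or M002 left 1 call, and leaving out M005 gave 4. Against the 3 Gy change, 0% of probes passed by limma, while 7871 had an unadjusted p under 0.05 and the lowest adjusted p was 0.0615.

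The change of Arntl stayed near 0 in the mice of 20 Gy, at 0.11, -0.17, -0.02 and 0.06, and each lay below the lowest sham change of 0.37. The difference between the doses was 1.101 (SE 0.29) with an adjusted p of 0.34 by limma, so it did not pass. After 3 Gy the change of Arntl was -0.06, 0.53, -1.05, 0.35 and 0.64, spread on both sides of 0 (difference from sham 1.02, adjusted p = 0.0615 by limma). Per2 differed by -0.07 to -0.63 after 20 Gy and by -1.58 to 1.80 after 3 Gy, where M013 alone was higher at d4. Dbp was lower in all 4 mice of 20 Gy by -0.43 to -0.63 and in 4 of 5 mice of 3 Gy by -1.30 to -2.50, against 0.96 in M013. The 20 Gy arrays were read on the same scanner and scan day as 3 of the sham pairs, but with a median biopsy signal of 29 to 33, against 48 to 64 on those sham arrays, and with h2 on one slide and d4 on another. The part of signal and slide in the smaller changes after 20 Gy was not tested.

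**Figure D5:**
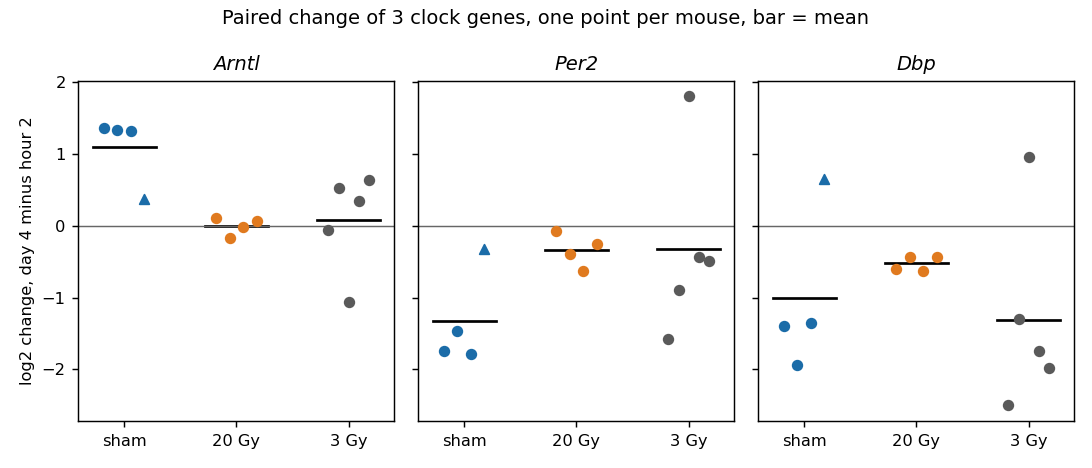
Log2 change from hour 2 to day 4 of Arntl, Per2 and Dbp in sham, 20 Gy and 3 Gy mice, one point per mouse with the mean as a bar and M002 as a triangle. The points of 3 sham mice lie together near 1.3 for Arntl, the 20 Gy points lie near 0, and the 3 Gy points are spread.

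Among the lists, the p53 targets had a median change of 0.47 after 20 Gy, beside 0.01 in sham, and 7 of 20 were lower in sham at an unadjusted p under 0.05 of the difference, beside 1.22% of all genes. In the deposited values only 32 of 30294 probes had an unadjusted p under 0.05 by limma in this comparison. The h2 and d4 arrays of 20 Gy lay on separate slides, and the part of slide here was not tested. Cell cycle genes had a median change of -0.35 after 20 Gy and in sham, and of 1.01 after 3 Gy, with 19 of 30 lower in sham than in 3 Gy at an unadjusted p under 0.05, beside 10.9% of all genes. Of the 5 pairs of 3 Gy, 4 were read on scanner 2 with h2 and d4 on separate slides, against 1 of the 4 sham pairs, and the part of scanner and slide in this difference was not tested. The 8 cell type lists given above for M002 had medians of -0.83 to -1.85 after 3 Gy. Skeletal muscle markers, also high in M002, had a median of -0.56 after 3 Gy. The part of these lists in the differences from 3 Gy was not tested either. Cornified envelope genes had a median of 0.54 in sham, 0.68 after 20 Gy and -0.58 after 3 Gy. Collagen and matrix genes were at -0.06, -0.33 and -0.93 in the same order, and the clock list at -0.26, -0.09 and -0.84. Without M002 the sham medians of these 2 lists were -0.36 and -0.43. No member of any list passed the threshold in either comparison of doses.

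Values of later sham arrays are given without a test. In M002, Arntl was at 0.88 on day 7 (d7), 0.62 on day 21 (d21) and 0.72 on day 28 (d28), close to 0.75 at d4. In M003, a sham mouse with arrays only from d7 on, it was at 0.80, 1.25 and 0.83. Dbp lay between -0.25 and -1.12 on these 6 arrays, all but 1 of them below the -0.35 of M002 at h2 and all below the other h2 arrays. Per2 lay between -0.34 and -1.20, below each h2 array, and Enc1 between -0.46 and -1.42, below each h2 array too. Scanner 2 read these 6 arrays and the h2 array of M002, while scanner 1 read the other h2 arrays. The median of the clock list was -0.08 in M002 at h2 and -0.12 to 0.03 on the 6 later arrays. The part of scanner in these differences was not tested. Sln lay between 0.84 and 7.01 and Mybph between 0.12 and 3.27. The d7 arrays of M001 and M005 had a median biopsy signal of 23 and 23.5 and ratios nearer 0, with Arntl at 0.01 and -0.00, and are not read further. Krt71 was at 0.19 on d7, 5.06 on d21 and 4.57 on d28 in M002, and at 5.17 on d7 in M003, while the median of the growing hair follicle list was at most 0.45 on these arrays.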

How the data were processed

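Total RNA of each skin biopsy, labelled with Cy5, was hybridised against a common mouse reference RNA, labelled with Cy3, on 2-colour arrays without dye swaps. The authors deposited scanner files of each array, with a signal intensity per spot and channel and the scanner software's log10 ratio of Cy5 over Cy3 (Agilent Feature Extraction 11.0.1.1 per the submitters' processing notes). A further deposited table holds normalized log2 values, whose scale and centring are not stated and whose median per sham array used here lay between -0.008 and 0.0059. Every value column was matched to a sample.

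From the median intensities, 1639 control spots of 45018 and 0.704% of values with outlier flags were left out, normexp (offset 50) was used for the background, and ratios were normalized within each array by loess with limma 3.58.1 in R 4.3.3. Spots of a probe were averaged. Symbols, found by matching the transcript names of probes to RefSeq transcripts, named 66.9% of 41174 probes. A gene was read by its probe of highest mean intensity. Of these probes, 30294 were tested, those whose Cy5 signal stood clear of background on 50% or more of any group's arrays. Their number of arrays limits the precision, as depth is not defined for arrays. One limma model over all 82 arrays, with group and mouse as fixed terms (40 residual degrees of freedom), gave each contrast, with Benjamini-Hochberg adjustment over all probes. Pairs are biopsies of the same mouse. The dose comparisons are differences of 2 such contrasts. p-values rest on how changes within a mouse vary from mouse to mouse, pooled over all doses and times.

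Genes were named where they were called (none was), otherwise by lowest p, up to 12 in each direction, among genes that differed one way in all 4 mice, by at least 2-fold, well above background on all arrays of the brighter group. Symbols of the Gm and Rik kind were left out. From each gene or marker list the members of lowest p were named, and other members where the text describes their list. Members, lists and rules were chosen with earlier results of these data known. The alternatives were another background correction, normalization, filter, variance model, block, scanner and set of samples, and each mouse left out in turn. Some genes are not reported here. The fitting code was tested on simulated data. Samples of other doses and times shared the fit, so they fed the estimate of the spread and, where a value was missing, could also move a change.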

Additional observations from a re-analysis of the deposited data

Results flagged for a closer look

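In 4 gene lists the median change of M002 lay far from those of the other 3 sham mice: 0.58 for the circadian clock, 0.92 for genes induced by glucocorticoids, 0.98 for collagen and matrix and -5.10 for the growing hair follicle. In the deposited values these medians were -0.01, 0.15, 0.32 and -3.25. For melanocyte markers M005 lay apart, at 0.59. Among the genes named by lowest p, M002 lay apart for Arntl (0.37), Asb2 (4.18), Dusp2 (-5.19) and Tent5b (-3.30), and Ciart at 0.087 did so among the clock genes. The test for a sample far from the others flags about 1 group in 20 by chance, and the flags share the same mouse.

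The change from h2 to d4 differed between sham and 20 Gy for the transcripts W15861 (-1.70) and AK021217 (-1.18) by limma's test of the difference. Neither probe has a symbol here. The slides of the 20 Gy arrays and the time points cannot be told apart.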

How the results depend on the processing

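The clock genes were called in some alternatives and not in others. Probes called higher and lower numbered 0 and 0 as reported, 1 and 5 in the deposited values, 2 and 0 with the scanner's log ratios, 1 and 3 on scanner 1 alone, 1 and 0 with slide as a random block, and 14 and 6 with array weights. Leaving out one mouse gave 0 to 1 higher and 0 to 1 lower, the calls being Arntl and Per2 without M002. With no replicate block, so without the pairing by mouse, 0 and 0 were called. Chosen after seeing the data, the deposited values without M002 gave 1 and 7. In the other alternatives tried no probe was called, at 1098 to 1767 probes with an unadjusted p under 0.05 (477 with only probes above background on all 8 arrays, 2281 with the 8 arrays less M002). Against the 20 Gy change, 2 calls became 0 in the deposited values, 42 with the scanner's log ratios, 0 with ratios centred on their median and 1 to 4 with one mouse left out. Against the 3 Gy change, 0 calls became 273 with ratios centred on their median and 0 to 2 with one mouse left out.

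Named genes, none of which was called, changed sign in 40 cases. With ratios centred on their median these were Col4a1 (-0.058), Csf1r (-0.13), Dst (-0.044), Fas (-0.024), Gp1ba (0.044), Il33 (-0.005), Irf1 (-0.33), Itga6 (-0.29), Mvd (-0.35), Ndufs3 (-0.19), Pdgfra (-0.29), Pdia6 (-0.36), Psmb8 (-0.33) and Sc5d (-0.29). With one mouse left out, the changes ranged from -0.70 to 0.079 for Areg, -0.26 to 0.72 for Csf1r, -0.79 to 0.24 for Epcam, -0.10 to 0.46 for Pdgfra, -0.025 to 0.34 for Psmb8, -0.69 to 0.19 for Slc4a1 and -1.04 to 0.26 for Sox9, the sign turning without M002 and alike on scanner 1 alone. The range was -0.39 to 0.013 for Msr1, whose sign turned without M005 and, at 0.0062, without background correction. With array weights, Csf1r was at -0.085, Epcam at 0.11, Pdgfra at -0.011, Slc4a1 at 0.069 and Sox9 at 0.081. With the scanner's log ratios, Camp was at -0.068, Cd22 at -0.13, Retn at -0.15 and Sox10 at -0.13, and in the deposited values Csf1r was at -0.064. The cause was not tested. Signal over background limits Per2, Cry1 and Ciart, whose probes were not well above background on all arrays.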
